A study of Mus musculus with 6 samples.

Results

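Genes of haem degradation and iron handling were followed in RNA sequencing data from cultured mouse macrophages that had been grown out of bone marrow. The 10 genes were taken by name: the haem-degrading enzymes Hmox1, Blvra and Blvrb, the ferritin chains Fth1 and Ftl1, the iron exporter Slc40a1, transferrin (Trf) and its receptor Tfrc, and the metal transporters Slc11a1 and Slc11a2. All 10 were found among 16871 gene numbers in the files, and all 10 passed the filter on low counts. Cells without both ALDH2 and the LDL receptor (DKO) gave 3 libraries, and cells without the LDL receptor alone (LKO), the control, gave 3 more. Both groups therefore lacked the LDL receptor, the main receptor for native low-density lipoprotein, and both were treated with oxidised low-density lipoprotein (oxLDL) after 7 days of culture. The mice were of the C57BL/6 strain and aged 8 weeks. The DKO cells also lacked ALDH2, the mitochondrial aldehyde dehydrogenase that clears reactive aldehydes, including those formed from oxidised lipids. The comparison asked how the loss of ALDH2 altered gene expression in oxLDL-treated macrophages. Whether each library stands for its own animal is not said in the labels, so every p-value rests on a spread between libraries that could be technical.

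Macrophages recover iron from haem. Haem oxygenase opens the haem ring and releases iron, carbon monoxide and biliverdin, and biliverdin reductase turns biliverdin into bilirubin. The iron is either stored inside ferritin, a shell built of heavy and light chains, or leaves the cell through ferroportin, the product of Slc40a1. Cells take up transferrin-bound iron through the transferrin receptor. When iron is scarce, iron regulatory proteins bind hairpins called iron-responsive elements, which blocks translation of ferritin and ferroportin mRNA and stabilises transferrin receptor mRNA. Hmox1 and both ferritin genes are also known targets of NRF2, a transcription factor activated by oxidants and reactive aldehydes.

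The hairpins are shown because they are the sites through which iron is known to act on several of these mRNAs. GENCODE M21 mouse transcripts (GRCm38) were searched on the sense strand for the bulged C and loop of the element, spelled as C, then 5 bases of any kind, CAGTG and 6 more bases of any kind, with 5 pairs between the bases on either side of the loop and at most 1 G-T pair. A match was present in 4 of the 10 genes, against 0.658% of 21877 protein-coding genes. As the element was already known from several of these mRNAs, this contrast is not a test of the set. Capitals mark the bulged C and the CAGTG of the loop, and each line gives the transcript strand with 5 more bases on each side.
Fth1 5′ UTR, chr19:9982733-9982759, plus strand: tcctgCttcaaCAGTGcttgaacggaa
Ftl1 5′ UTR, chr7:45459780-45459806, minus strand: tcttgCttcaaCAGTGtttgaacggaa
Slc40a1 5′ UTR, chr1:45925466-45925492, minus strand: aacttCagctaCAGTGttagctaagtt
Tfrc 3′ UTR, chr16:32631220-32631246, plus strand: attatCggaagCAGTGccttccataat
Tfrc 3′ UTR, chr16:32631599-32631625, plus strand: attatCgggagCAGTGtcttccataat
Tfrc 3′ UTR, chr16:32631664-32631690, plus strand: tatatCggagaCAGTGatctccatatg
Tfrc 3′ UTR, chr16:32631711-32631737, plus strand: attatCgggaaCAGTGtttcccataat
Fth1, Ftl1 and Slc40a1 each had 1 match, in the 5′ UTR, and Tfrc had 4, all in the 3′ UTR. The Fth1 and Ftl1 sites shared 25 of 27 bases. The other 6 genes had no match to these letters in the transcripts searched. One of them, Slc11a2, is known for an iron-responsive element in the 3′ UTR of a longer transcript, which this spelling does not find, so no match does not mean no element.

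Across the libraries, between 10760625 and 10987584 expected counts were assigned to genes. Aldh2 stood at 7.13 ± 0.181 FPKM in DKO and 241 ± 6.83 in LKO (SD, n = 3 each), so 2.96% of the LKO level remained, as the labels require. The median log2 fold change of the 11809 genes tested was 0.00. None of the 10 genes lies on the chromosome of Aldh2. Macrophage identity was checked with 10 marker genes (Cd68, Adgre1, Csf1r, Itgam, Lyz2, Mertk, Cd14, Fcgr1, Tyrobp and Aif1), and none of them was at 0 in either group. They summed to 12305 to 13481 FPKM in DKO and 11084 to 11804 in LKO. By edgeR, 4 were higher in DKO (Mertk, Fcgr1, Csf1r and Lyz2), 1 was lower (Adgre1) and 5 did not pass an adjusted p of 0.05. The called share was 50%, against 14.3% of all genes tested (7.42% higher and 6.88% lower). The sum mostly reflects Lyz2, at 7616 ± 580 FPKM in DKO and 6105 ± 337 in LKO. Adgre1, the next most abundant, had 1755 ± 31.8 FPKM in DKO and 1938 ± 95.8 in LKO (SD, n = 3 each). The sum is therefore no measure of macrophage content.

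Of the 10 haem and iron genes, 8 were higher in DKO, 1 (Slc11a2) was lower and 1 (Blvra) did not pass an edgeR adjusted p of 0.05. That is 90% of them, where 14.3% of all genes tested passed, 7.42% higher and 6.88% lower in DKO. The FPKM ranges of the groups did not overlap for 9 of the 10 genes, against 29.6% of all genes tested. The 10 genes and the lists below were chosen with earlier results of these data known, so such shares do not test them as sets. All genes tested also include genes with far fewer counts, for which a small change is harder to call. Of the 10, only Slc40a1 and Hmox1 passed with a fold of at least 1.5, against 3.38% of all genes tested. They were 2 of the 9 genes with a call, and 399 of all 1689 called genes had such a fold. Large folds were thus no more frequent among the calls of this set than among all calls. The folds of the other genes of the 10 lay between 0.905 for Slc11a2 and 1.39 for Trf. The median log2 fold change of the 10 was 0.19. Every one of them had at least 556 expected counts in every library, and their coefficient of variation within a group was between 1.23% and 14.97%.

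**Figure D1:**
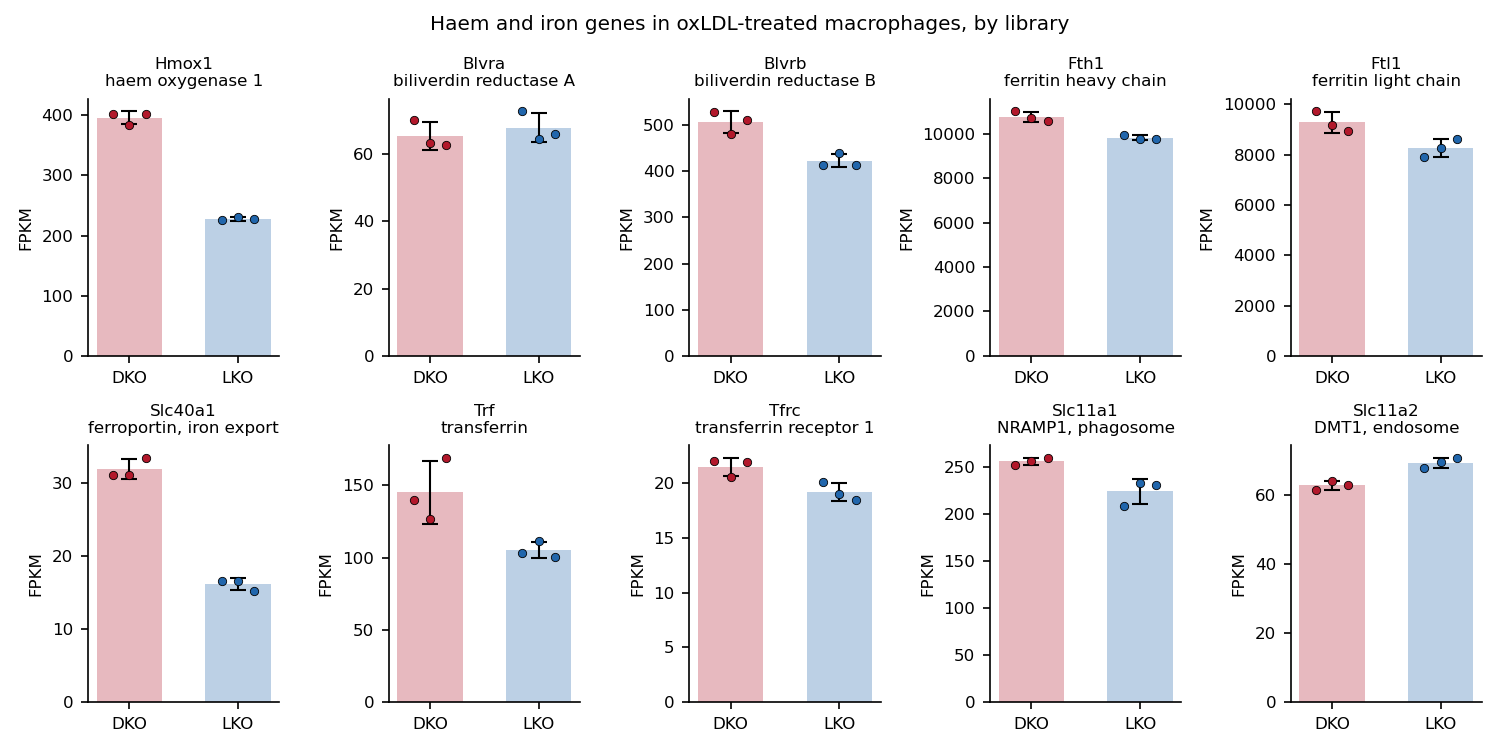
FPKM of the 10 haem and iron genes in each library of DKO (red, left) and LKO (blue, right); bars are means of 3 libraries, error bars the SD and points single libraries. All DKO points of Hmox1 and Slc40a1 lie far above the LKO points, those of Slc11a2 lie below them, and those of Blvra overlap them.

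Haem degradation began with the clearest rise. Hmox1 (NCBI gene 15368), the inducible haem oxygenase that carries out the first and rate-limiting step, had 401, 383 and 403 FPKM in the 3 DKO libraries, against 225, 231 and 227 FPKM in the 3 LKO libraries. The lowest DKO library lay far above the highest LKO library, and the spread within each group was under 3% of its mean (coefficients of variation of 2.78% in DKO and 1.40% in LKO). The log2 fold change was 0.81 ± 0.04 (SE), a 1.75-fold rise with a 95% interval of 1.65 to 1.85 (edgeR adjusted p = 7.95e-12). By p-value Hmox1 ranked 11th of 11809 genes. In bulk RNA, fewer cells of a type and less RNA per cell cannot be told apart, and this holds for every difference given here.

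Of the genes named as biliverdin reductases, Blvrb rose and Blvra did not pass the threshold. Blvrb (NCBI gene 233016), the broad-specificity biliverdin reductase B, which is also a flavin reductase, had 528, 481 and 511 FPKM in DKO, against 414, 439 and 414 FPKM in LKO. All DKO libraries exceeded all LKO libraries, and the rise was 1.21-fold (log2 fold change 0.27 ± 0.05 SE, edgeR adjusted p = 0.000206). Blvra (NCBI gene 109778), the main reductase of biliverdin in the adult, had 70.0, 63.2 and 62.5 FPKM in DKO, against 72.7, 64.5 and 66.0 FPKM in LKO. Its groups overlapped, and the fold of 0.971 had a 95% interval of 0.896 to 1.05 (edgeR adjusted p = 0.729), which leaves out a rise of the size seen for Hmox1 or Blvrb. Blvrb was by far the more abundant reductase on the FPKM scale, and the Blvra to Blvrb ratio averaged 0.129 ± 0.00566 in DKO and 0.161 ± 0.0142 in LKO (SD, n = 3 each).

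Iron storage genes were among the most abundant of all and rose slightly. Fth1 (NCBI gene 14319), the ferritin heavy chain, which oxidises iron for storage, had 11019, 10708 and 10585 FPKM in DKO, against 9962, 9749 and 9755 FPKM in LKO. By FPKM it ranked 1st or 2nd in every library. The groups did not overlap, and the rise was 1.11-fold (log2 fold change 0.14 ± 0.03 SE, edgeR adjusted p = 0.0034).

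Ftl1 (NCBI gene 14325), the ferritin light chain, which helps to lay down the iron core, had 9725, 9174 and 8934 FPKM in DKO, against 7904, 8247 and 8615 FPKM in LKO. Its lowest DKO library was only a little above its highest LKO library. The rise was 1.13-fold (log2 fold change 0.18 ± 0.04 SE, edgeR adjusted p = 0.00224). Together Fth1 and Ftl1 took 1.89% ± 0.0602 of all expected counts in DKO and 1.70% ± 0.0257 in LKO (SD, n = 3 each). Neither call was kept by limma on log2(FPKM + 1), with an adjusted p of 0.0849 for Fth1 and of 0.0777 for Ftl1. Ferritin has many processed copies in the mouse genome. None of 14 other annotated genes with symbols starting Fth or Ftl, which were picked by name and need not all be such copies, was listed in any file. How reads from the copies were assigned is unknown, and the ferritin values are uncertain to that extent.

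Iron export showed the largest fold of the 10 genes. Slc40a1 (NCBI gene 53945), which encodes ferroportin, the only known exporter of iron from animal cells, had 31.1, 31.0 and 33.4 FPKM in DKO, against 16.6, 16.6 and 15.2 FPKM in LKO. Every DKO library was close to 2-fold above every LKO library. The log2 fold change was 0.99 ± 0.06 (SE), a 1.99-fold rise with a 95% interval of 1.84 to 2.15 (edgeR adjusted p = 7.34e-11). By log2 fold change Slc40a1 ranked 86th of 11809 genes.

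Trf (NCBI gene 22041), the iron carrier protein transferrin, had 140, 127 and 169 FPKM in DKO, against 103, 112 and 101 FPKM in LKO. DKO replicate 3 stood above the other DKO libraries, yet even the lowest DKO library exceeded all LKO libraries. The rise was 1.39-fold (log2 fold change 0.48 ± 0.07 SE, edgeR adjusted p = 7.43e-05), and the coefficient of variation in DKO, 14.97%, was the highest of any of the 10 genes. Without DKO replicate 3 the log2 fold change was 0.35. Trf also passed with each library left out, and failed in limma without a filter (adjusted p = 0.0684).

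Tfrc (NCBI gene 22042), the transferrin receptor that takes up the loaded carrier, had 21.95, 20.5 and 21.9 FPKM in DKO, against 20.1, 18.9 and 18.4 FPKM in LKO. The groups did not overlap, by a narrow margin, and the rise was 1.13-fold (log2 fold change 0.18 ± 0.05 SE, edgeR adjusted p = 0.0295). This call depended on single libraries: the edgeR adjusted p was 0.0997 without LKO replicate 2, 0.123 without LKO replicate 3, 0.113 without DKO replicate 1 and 0.135 without DKO replicate 3. DESeq2 gave an adjusted p of 0.0678. Both the genes with a match in the 5′ UTR (Fth1, Ftl1 and Slc40a1) and the gene with matches in the 3′ UTR (Tfrc) were thus higher in DKO, the last one less firmly. In the 5′ UTR the hairpin is known to act on translation, which mRNA levels do not show. Whether the hairpins had a part in these differences was not tested.

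The metal transporters moved in opposite directions. Slc11a1 (NCBI gene 18173), or NRAMP1, moves iron and manganese out of the phagosome and is found mainly in phagocytes. It had 252, 256 and 259 FPKM in DKO, against 208, 232 and 231 FPKM in LKO. The groups did not overlap, LKO replicate 1 was the lowest, and the rise was 1.151-fold (log2 fold change 0.20 ± 0.05 SE, edgeR adjusted p = 0.00316). C57BL/6 mice are known to carry an allele of Slc11a1 that impairs the protein, which the mRNA level does not show.

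Slc11a2 (NCBI gene 18174), or DMT1, carries ferrous iron across endosome membranes after its release from transferrin. It had 61.5, 64.1 and 62.9 FPKM in DKO, against 67.9, 69.8 and 70.7 FPKM in LKO. It was the only gene of the 10 that fell, to a fold of 0.905 (log2 fold change −0.14 ± 0.04 SE, edgeR adjusted p = 0.0298). The groups did not overlap. Its call too depended on single libraries: the edgeR adjusted p was 0.11 without LKO replicate 2, 0.0874 without LKO replicate 3, 0.11 without DKO replicate 1, 0.0685 without DKO replicate 2 and 0.0749 without DKO replicate 3. It passed in DESeq2 and failed in all limma fits. The counts of Slc11a2 pool a pair of RefSeq transcripts, and the mean transcript length that the authors' files give for it was 3255 ± 8.71 bases in DKO and 3280 ± 14.5 bases in LKO (SD, n = 3 each). The lengths did not overlap between groups (exact two-sided permutation p = 0.1, the smallest that 3 against 3 libraries allow).

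**Figure D2:**
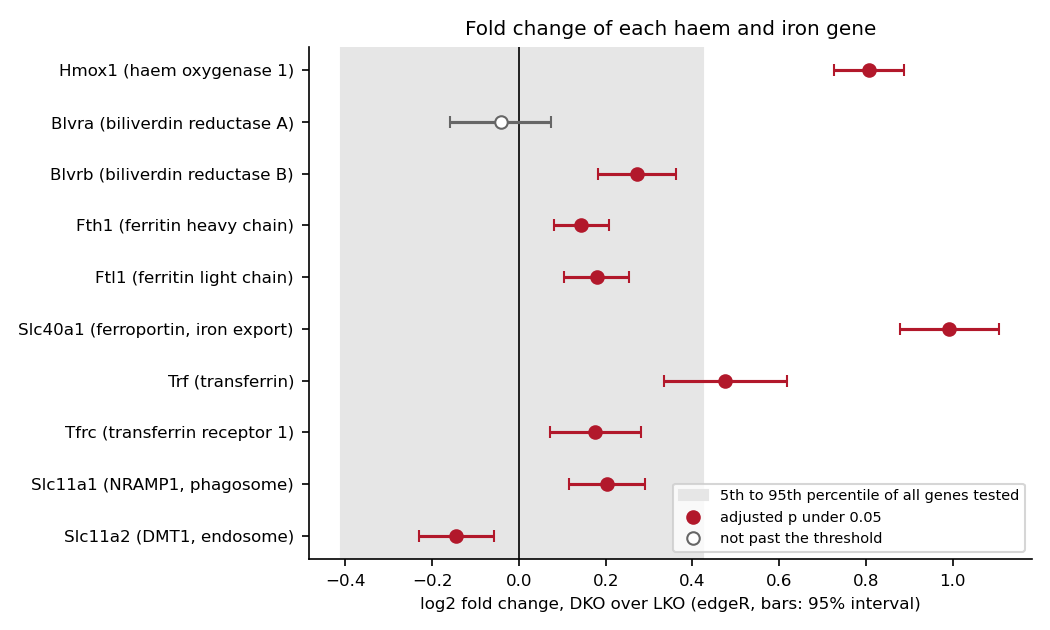
Log2 fold change of DKO over LKO for each gene (edgeR), with 95% intervals; filled points passed an adjusted p of 0.05 and the grey band spans the 5th to the 95th percentile of all genes tested (−0.41 to 0.42). Slc40a1 at 0.99 and Hmox1 at 0.81 lie outside the band, Trf at 0.48 lies just outside it, and the other genes lie inside it.

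Levels per transcript length kept nearly the same order in both groups. In DKO the order was Fth1, Ftl1, Blvrb, Hmox1, Slc11a1, Trf, Blvra, Slc11a2, Slc40a1 and Tfrc. Blvra and Slc11a2, at 65.3 ± 4.13 and 62.8 ± 1.28 FPKM in DKO, overlapped there and did not differ beyond their spread. In LKO, Hmox1 and Slc11a1 overlapped at 228 ± 3.18 and 224 ± 13.4 FPKM, as did Blvra and Slc11a2 at 67.7 ± 4.35 and 69.5 ± 1.43 FPKM, and Tfrc exceeded Slc40a1 at 19.1 ± 0.833 and 16.1 ± 0.806 FPKM (SD, n = 3 each). Hmox1 thus stood apart from Slc11a1 in DKO but not in LKO, and Slc40a1 and Tfrc changed places.

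Within-library ratios set paired genes against each other independently of library size. The Slc40a1 to Tfrc ratio, iron exit against iron entry, was 1.41, 1.51 and 1.53 in DKO, against 0.826, 0.876 and 0.825 in LKO. All DKO libraries were above 1 and all LKO libraries below it. The Slc11a1 to Slc11a2 ratio was 4.09, 4.0 and 4.12 in DKO, against 3.07, 3.33 and 3.27 in LKO, and did not overlap between groups. The Blvra to Blvrb ratio was lower in every DKO library than in any LKO library. The Fth1 to Ftl1 ratio, heavy against light chain, averaged 1.16 ± 0.0263 in DKO and 1.19 ± 0.0646 in LKO (SD, n = 3 each), and the groups overlapped. Over the 4 ratios, exact two-sided permutation tests gave p = 0.1 for the first 3, the smallest that 3 against 3 libraries allow, and p = 0.7 for ferritin (Benjamini-Hochberg adjusted over the 4, p = 0.133 and p = 0.7). The exact test could therefore not reach 0.05 for any ratio.

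**Figure D3:**
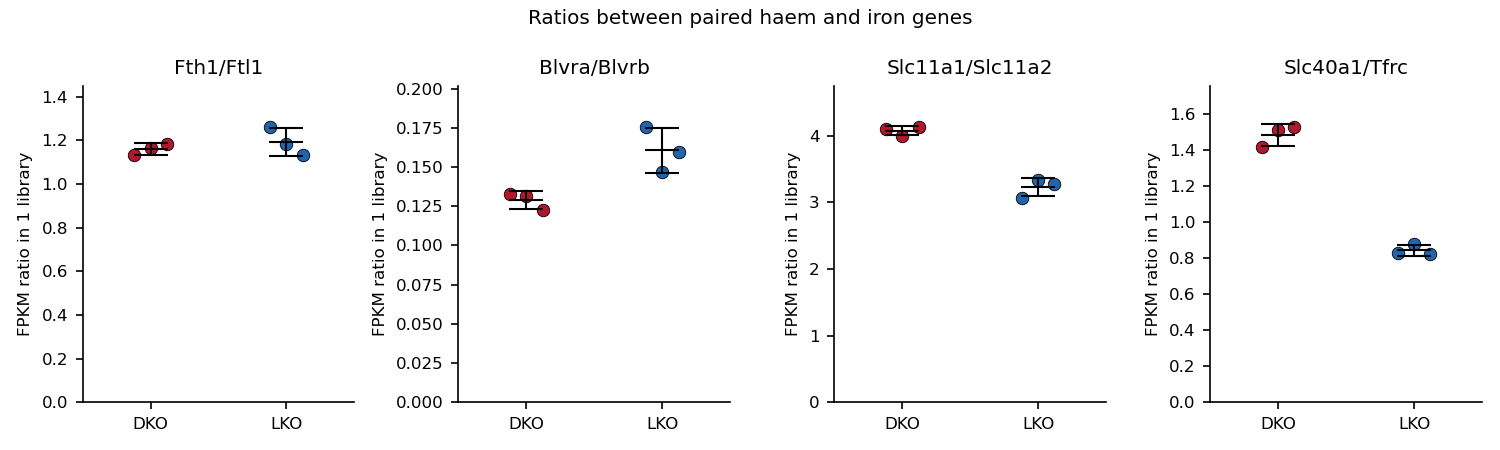
Ratio of the FPKM of paired genes within each library, for DKO (red, left) and LKO (blue, right); points are single libraries, and the horizontal marks and bars are the mean and SD of 3. The Slc40a1 to Tfrc ratio averaged 1.48 in DKO and 0.843 in LKO, while the Fth1 to Ftl1 ratios of the groups overlap.

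Among other genes of haem handling, Slc48a1 rose in every setting tried. Of 16 genes of haem transport and haem-responsive control, 15 were tested, of which 6 were higher in DKO, 1 was lower and 8 did not pass, with a median log2 fold change of 0.09. Of all genes tested, 7.42% were higher and 6.88% lower. Slc48a1, or HRG1, which moves haem out of the phagolysosome into the cytosol where haem oxygenase acts, rose 1.48-fold. It had 170 ± 1.61 FPKM in DKO and 116 ± 3.34 FPKM in LKO (SD, n = 3 each; log2 fold change 0.56 ± 0.04 SE, edgeR adjusted p = 3.93e-09) and passed in each of the 17 alternatives. Spic, a transcription factor that haem induces in iron-recycling macrophages, had 23.5 ± 0.631 FPKM in DKO and 19.3 ± 1.40 FPKM in LKO (edgeR adjusted p = 0.00917, but 0.0693 without LKO replicate 2, and 0.0608 in DESeq2). Keap1, the inhibitor of NRF2, had 23.1 ± 1.06 FPKM in DKO and 19.9 ± 0.706 FPKM in LKO (edgeR adjusted p = 0.0125, but 0.0851 without LKO replicate 2, 0.0626 without DKO replicate 2 and 0.0702 without DKO replicate 3).

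The remaining 3 that rose were Cd163, the receptor for haptoglobin-bound haemoglobin, the constitutive oxygenase gene Hmox2 and the haem-binding protein gene Pgrmc1, which are named after their values were seen. Cd163 had 3.51 ± 0.421 FPKM in DKO and 2.58 ± 0.236 FPKM in LKO (edgeR adjusted p = 0.0131), a call that was lost without LKO replicate 1 (0.0539), DKO replicate 1 (0.088) or DKO replicate 3 (0.0537). Hmox2 had 187 ± 4.52 FPKM in DKO and 168 ± 1.99 FPKM in LKO (edgeR adjusted p = 0.0175), a call lost without LKO replicate 3 (0.056), DKO replicate 1 (0.0669) or DKO replicate 3 (0.0878). Pgrmc1 had 22.1 ± 0.885 FPKM in DKO and 19.2 ± 0.754 FPKM in LKO (edgeR adjusted p = 0.0317), a call lost without LKO replicate 1 (0.0648), LKO replicate 3 (0.114), DKO replicate 1 (0.134) or DKO replicate 3 (0.0909), and in DESeq2 (0.148). The number of genes of this list higher in DKO was 6 with all libraries, 4 in DESeq2, 3 without DKO replicate 1 and 2 without DKO replicate 3.

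Flvcr2, a membrane transporter of the same family as the haem exporter FLVCR1, was the one that fell, at 0.313 ± 0.0681 FPKM in DKO and 0.967 ± 0.107 FPKM in LKO (log2 fold change −1.59 ± 0.26 SE, edgeR adjusted p = 0.000169). Its level was low in both groups, and the limma fits filtered on FPKM left it out. It passed in each of the 14 alternatives that tested it, with log2 fold changes from −1.78 to −0.58. The transcription factors that control Hmox1 did not pass: Nfe2l2, which encodes NRF2, had 79.0 ± 1.85 FPKM in DKO and 83.7 ± 2.37 FPKM in LKO (edgeR adjusted p = 0.334). Bach1, the haem-sensing repressor of Hmox1, had 37.0 ± 1.01 FPKM in DKO and 37.2 ± 0.654 FPKM in LKO (edgeR adjusted p = 0.961). These are mRNA levels, and both factors are known to be controlled mainly as proteins.

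Of 12 genes of haem synthesis tested, 1 was higher, 1 was lower and 10 did not pass, with a median log2 fold change of 0.00. Their called share, 16.7%, was close to the 14.3% of all genes tested and is no result about haem synthesis. Alad, the second enzyme of the pathway, had 2.04 ± 0.191 FPKM in DKO and 1.33 ± 0.121 FPKM in LKO (log2 fold change 0.62 ± 0.14 SE, edgeR adjusted p = 0.00362). Cpox, an enzyme near its end, had 3.77 ± 0.0700 FPKM in DKO and 5.13 ± 0.0902 FPKM in LKO (log2 fold change −0.43 ± 0.10 SE, edgeR adjusted p = 0.00453).

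Genes of iron sensing showed no call. Of 13 listed, 8 were tested by edgeR and none passed, 0 of them at an unadjusted p under 0.05, and DESeq2 also called 0. The iron regulatory proteins were among them, with Aco1 at 16.1 ± 0.669 FPKM in DKO and 15.9 ± 0.275 FPKM in LKO (log2 fold change 0.02 ± 0.06 SE) and Ireb2 at 12.9 ± 0.576 FPKM in DKO and 12.9 ± 0.746 FPKM in LKO (0.01 ± 0.06 SE). Ncoa4, the receptor that delivers ferritin to autophagy, had a log2 fold change of 0.00 ± 0.04 (SE). Hamp, the gene of the iron hormone hepcidin, had no listed value and was taken as 0 in all libraries. Iron-sulphur cluster assembly likewise had 0 of 15 genes past the threshold in edgeR, with 1 at an unadjusted p under 0.05, and DESeq2 called 0, while limma on log2(FPKM + 1) called 1 lower.

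Genes of iron transport and reduction had 3 of 11 tested genes lower in DKO and none higher, with a median log2 fold change of −0.06, against 6.88% of all genes tested that were lower. Those that fell were Ltf, the iron-binding protein lactoferrin, Lcn2, which binds bacterial iron carriers, and Slc39a8, a transporter of zinc, manganese and iron. Ltf had 16.6 ± 0.758 FPKM in DKO and 23.3 ± 0.769 FPKM in LKO (log2 fold change −0.48 ± 0.06 SE, edgeR adjusted p = 6.6e-06). Lcn2 had 21.1 ± 1.05 FPKM in DKO and 32.9 ± 1.86 FPKM in LKO (log2 fold change −0.63 ± 0.08 SE, edgeR adjusted p = 1e-05). Both belong to the neutrophil granule genes and stand on the neutrophil marker list as well. Slc39a8 had 5.48 ± 0.798 FPKM in DKO and 6.79 ± 0.326 FPKM in LKO (edgeR adjusted p = 0.0392), and its call was lost without LKO replicate 1 (0.0938), LKO replicate 2 (0.107) or DKO replicate 2 (0.249). Slc39a8 passed in 7 of the 17 alternatives, and DESeq2 gave an adjusted p of 0.132. Steap3, the reductase that works with transferrin uptake, did not pass, at 6.11 ± 0.231 FPKM in DKO and 7.49 ± 0.875 FPKM in LKO (edgeR adjusted p = 0.0517). Cp, or ceruloplasmin, the ferroxidase that works with ferroportin, did not pass either, at 77.8 ± 1.06 FPKM in DKO and 84.2 ± 2.10 FPKM in LKO (edgeR adjusted p = 0.11).

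**Figure D4:**
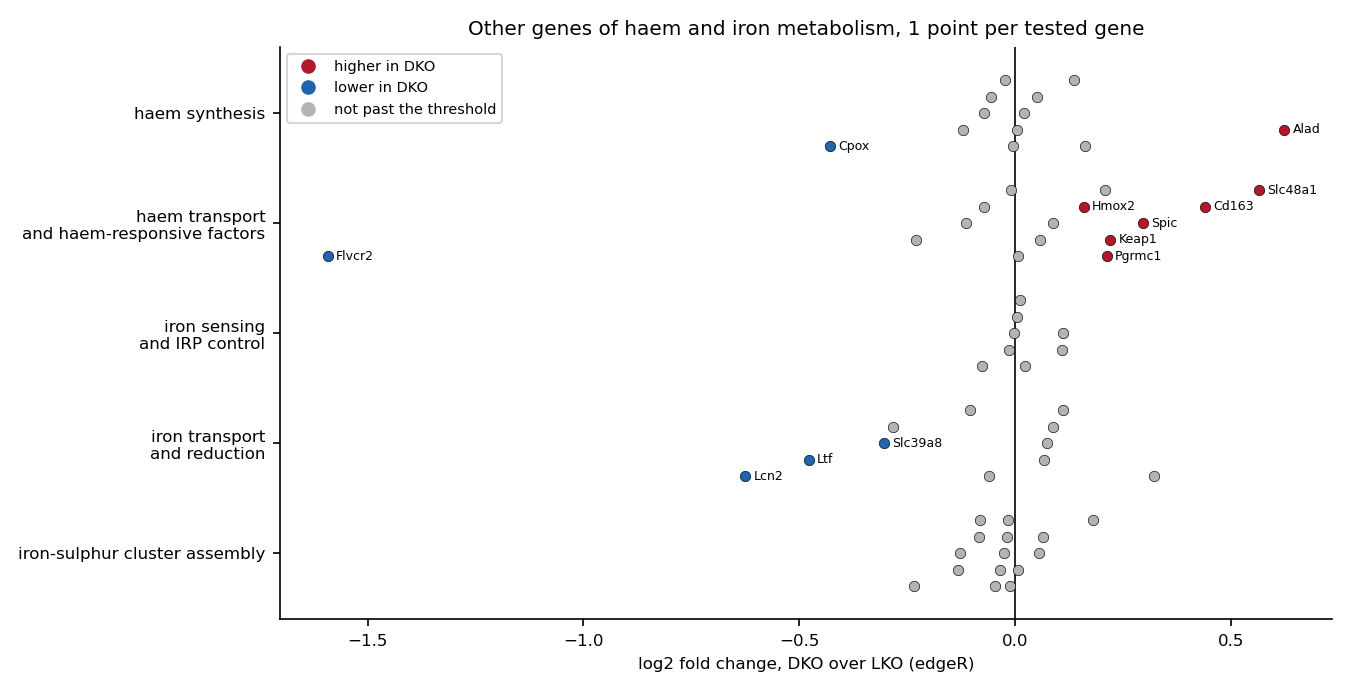
Log2 fold change of DKO over LKO (edgeR) for each tested gene of 5 lists of haem and iron metabolism outside the 10 genes, with genes past an adjusted p of 0.05 named and coloured (red higher, blue lower in DKO). Haem transport and haem-responsive factors hold 6 genes higher and 1 lower, and no call falls in iron sensing or iron-sulphur cluster assembly.

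Markers of other cells moved in the same libraries. Neutrophil markers had 0 of 14 tested genes higher and 9 lower in DKO, and their 16 genes summed to 424 to 463 FPKM in DKO and 637 to 695 in LKO. B lymphocyte markers had 5 of 7 tested genes lower, with sums of 89.4 to 99.3 FPKM in DKO and 114 to 129 in LKO. Stromal and fibroblast markers had 7 of 9 tested genes higher, with sums of 74.6 to 100.3 FPKM in DKO and 45.4 to 52.4 in LKO. Of all genes tested, 7.42% were higher and 6.88% lower in DKO. None of the markers on these 3 lists was at 0 in all libraries. Their part in the differences of the haem and iron genes was not tested. Erythroid cells, which make and use most haem in marrow, left little trace: of 14 markers, 6 had no listed value in any library and were taken as 0, among them Hba-a2, Hbb-bs, Hbb-bt, Slc4a1 and Ahsp. Hba-a1, an alpha globin gene, had 0.563 ± 0.254 FPKM in DKO and 0.570 ± 0.104 FPKM in LKO. Only 2 erythroid markers were tested by edgeR and 0 passed, also at an unadjusted p under 0.05. The list summed to 9.0 to 9.85 FPKM in DKO and 8.81 to 9.49 in LKO, of which Tmod1, a gene also active outside erythroid cells, gave 7.98 ± 0.0608 FPKM in DKO and 7.52 ± 0.442 FPKM in LKO.

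The genes whose pattern over the 6 libraries was most like that of Hmox1 were Folr2, Nnt and Anxa4. Likeness was the root mean square difference of log2(CPM + 1), each gene taken relative to its LKO mean. It was ranked over 10811 genes with a mean of at least 2 CPM, and was 0.05 for Folr2, 0.05 for Nnt and 0.06 for Anxa4. Such a measure mainly finds genes with a similar fold between the groups and does not show shared control. Folr2, a folate receptor of macrophages, had 96.1 ± 1.59 FPKM in DKO and 54.1 ± 3.46 FPKM in LKO, and Anxa4, an annexin, had 54.8 ± 0.771 FPKM in DKO and 33.0 ± 0.366 FPKM in LKO. Nnt, the mitochondrial transhydrogenase, had a log2 fold change of 0.75 in counts, while its FPKM of 21.9 ± 0.795 in DKO and 14.8 ± 0.379 in LKO lay closer together. The nearest to Slc40a1 were Gcn1 (0.06), Trpv4 (0.06) and Dapk1 (0.08), with log2 fold changes of 0.96, 1.01 and 0.96. Gcn1 and Trpv4 lie on the chromosome of Aldh2, and Slc40a1 does not.

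**Figure D5:**
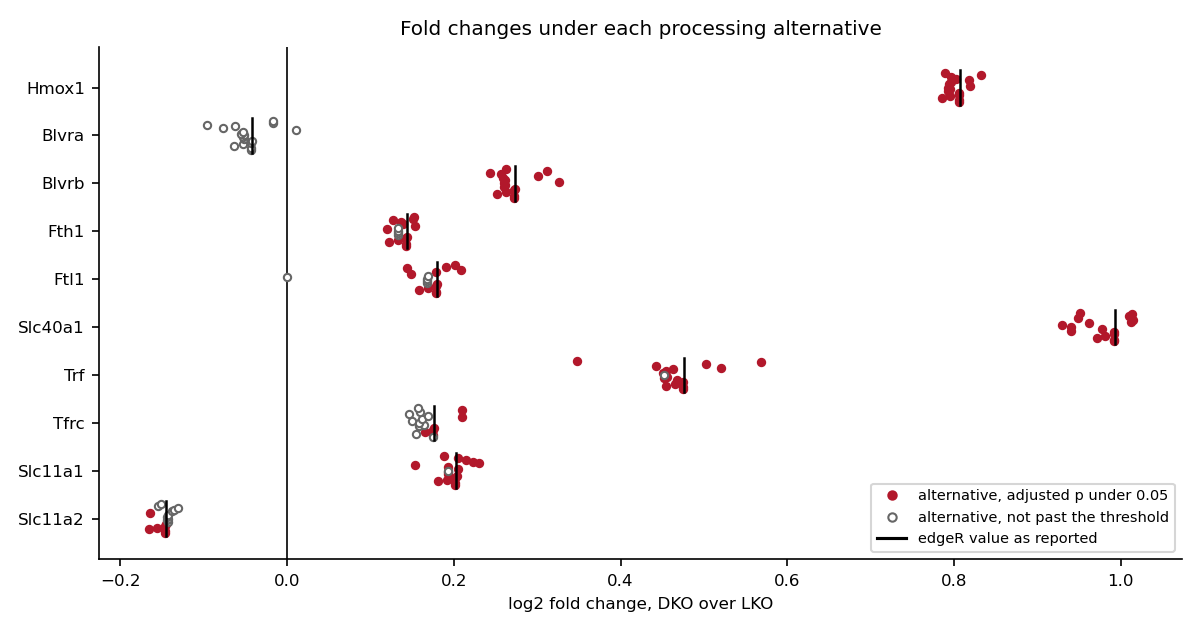
Log2 fold change of DKO over LKO for each of the 10 genes under 17 processing alternatives (points, filled where the adjusted p was under 0.05), beside the edgeR value as reported (black line). Hmox1, Slc40a1 and Blvrb are filled throughout, most points of Tfrc and Slc11a2 are open, and the Ftl1 point at 0 is the quantile-normalized fit.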

How the data were processed

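RNA from 6 libraries was sequenced, 3 in each group by their labels. For every gene the deposited files give an expected count, which is the authors' estimate of its reads and need not be whole, and the length of its transcript. They also give FPKM, in which the authors scaled those reads to length and library size. The submitters' processing notes name Bowtie 0.12.2 and mm8. No source used here gives the counter or the strand setting. Genes absent from a library's file were set to 0, and the lowest FPKM listed was 0.01. A RefSeq table of GRCm38 supplied symbols for 16832 of 16871 gene numbers. Hairpin coordinates are those of GRCm38, a different build from that of the files.

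The libraries held 10760625 to 10987584 expected counts. Pairs of libraries gave a chi-square per degree of freedom of 1.68 to 3.71 within groups and 8.30 to 14.9 across them (genes with at least 20 counts), so none was a repeat of another. Rounded counts of 11809 genes that passed filterByExpr were tested by the edgeR 4.0.16 quasi-likelihood method in R 4.3.3, using TMM and no block. P-values were adjusted by Benjamini-Hochberg, and 0.05 was the threshold. The SE of a log2 fold change was its size over the root of F, and 95% intervals span 1.96 SE each way. Alternatives were DESeq2 1.42.0, other scalings, no filter, a replicate block, limma 3.58.1 on log2(FPKM + 1) and its variants, and omission of each library. The fits were first tested on simulated data. A pseudocount makes limma understate the change of low genes.

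The 10 genes and the lists were chosen with earlier results of these data known. Named besides the 10 are up to 3 called genes of each list with the smallest p in each direction, further list genes picked after their values were seen, and the 3 genes nearest in pattern to Hmox1 and to Slc40a1.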

Additional observations from a re-analysis of the deposited data

How the results depend on the processing

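Hmox1, Slc40a1 and Blvrb passed in all 17 alternatives, with log2 fold changes of 0.79 to 0.83, 0.93 to 1.01 and 0.24 to 0.33. Trf passed in 16, Slc11a1 in 16, Fth1 in 13, Ftl1 in 12, Slc11a2 in 7 and Tfrc in 6; no direction among these changed, except that Ftl1 was at 0.00 after quantile normalization, where a gene of the same rank in every library gets the same value. Blvra, which never passed, lay between −0.0957 and 0.0107 with a library left out, and was above 0 only without LKO replicate 1. The number of the 10 genes higher in DKO, 8 as reported, was 5 by limma on log2(FPKM + 1), on log2(FPKM + 0.1) and on log2(TPM + 1), 3 by limma without a filter, and 8 by edgeR without one. The number lower, 1 as reported, was 0 in each of the 5 limma fits, and between 0 and 1 with a library left out, when the number higher was 7 or 8. Of all genes, 1689 passed as reported, 1205 in DESeq2, 1119 by limma with a pseudocount of 0.1, 807 by limma without a filter against 1537 by edgeR without one, 1108 by limma after quantile normalization, and between 1175 and 1481 with a library left out. The cause of these differences was not tested.

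The replicate numbers did not pair the samples: the deviations of same-numbered libraries correlated at 0.0037, −0.0667 and −0.0233 over genes. With the replicate block 1553 genes passed, and 8 of the 10 genes were higher and 1 lower. Of the haem transport and haem-responsive genes, 5 instead of 6 were then higher, as Pgrmc1 had an adjusted p of 0.0503. The 4 within-library ratios moved by less than the spread between replicates with a library left out. Taken as counts per kilobase they are the same quantity as in FPKM, apart from rounding, so that setting could not move them. The log2 Fth1 to Ftl1 difference, −0.04 as reported, was 0.01 without LKO replicate 1, and its groups overlap.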
